A study of Mus musculus with 9 samples.

Results

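Mitosis and the G2/M transition were followed here through 42 mouse genes, taken by symbol and found as 42 of the 34866 gene rows of the deposited expression tables. Each of the 42 is annotated as protein-coding, each was above 0 in every library, and each passed the filter on low values in all 3 comparisons (a mean of at least 1 TPM, or transcripts per 1000000, over the 6 libraries compared). The cells were primary mouse macrophages in alpha-MEM with serum and L929-conditioned medium, a source of macrophage colony stimulating factor. The labels give neither genotype, strain, age nor the tissue the cells came from. Of the 3 groups, all of which shared this medium, the standard group spent 7 days at standard oxygen, the acute group spent its last 3 hours at 1% oxygen after standard oxygen, and the chronic group spent 7 days at 1% oxygen. Each group held 3 libraries, which the design text calls biological replicates. Sample descriptions carry 1 of 3 numeric codes, each once in each group, which are called codes A, B and C here. What the code stands for is not stated.

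Cells enter mitosis when cyclin B with Cdk1 becomes active. Plk1 and the Aurora kinases then drive spindle assembly, the kinetochore ties chromosomes to microtubules, and the anaphase promoting complex with Cdc20 ends mitosis before the cytokinesis proteins divide the cell. Transcripts of these genes accumulate in G2 and M and are low in resting cells, so in bulk RNA they are widely used as a readout of proliferation. The factors known to control them act through a short element called the cell cycle genes homology region (CHR), bound by the MuvB complexes and Foxm1, and through CCAAT boxes, bound by NF-Y. Macrophages can divide in culture under colony stimulating factor. In bulk RNA a larger share of dividing cells and more RNA per cell cannot be told apart.

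The upstream sequences of members from 5 roles are shown as chosen examples and do not stand for all members. Whether the CHR and CCAAT elements had a part in the changes in chronic hypoxia was not tested. Each stretch holds 120 bases of the RefSeq window on GRCm38.p6, 5′ to 3′ on the gene's strand. Capitals mark the CHR core (TTTGAA, or TTCAAA on the other strand) and the CCAAT box (CCAAT, or ATTGG on the other strand). At most the last 26 bases of a stretch fall inside the GENCODE gene.
Cdk1: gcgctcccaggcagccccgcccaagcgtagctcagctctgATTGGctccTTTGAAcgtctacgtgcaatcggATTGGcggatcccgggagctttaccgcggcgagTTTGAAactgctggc
Bub1: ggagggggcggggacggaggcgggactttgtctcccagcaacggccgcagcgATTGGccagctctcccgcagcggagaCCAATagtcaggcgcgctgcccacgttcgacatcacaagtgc
Kif11: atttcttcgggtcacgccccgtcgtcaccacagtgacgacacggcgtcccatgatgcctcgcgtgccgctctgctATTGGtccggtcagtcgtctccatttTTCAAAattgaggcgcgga
Prc1: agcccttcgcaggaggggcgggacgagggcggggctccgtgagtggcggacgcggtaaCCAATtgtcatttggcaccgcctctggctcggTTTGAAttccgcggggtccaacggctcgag
Cdc20: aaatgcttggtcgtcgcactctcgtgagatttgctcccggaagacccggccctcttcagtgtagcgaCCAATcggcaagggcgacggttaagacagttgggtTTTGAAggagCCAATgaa
Ube2c: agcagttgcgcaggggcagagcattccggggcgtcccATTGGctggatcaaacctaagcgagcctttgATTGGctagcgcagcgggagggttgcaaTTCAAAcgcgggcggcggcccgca
Top2a: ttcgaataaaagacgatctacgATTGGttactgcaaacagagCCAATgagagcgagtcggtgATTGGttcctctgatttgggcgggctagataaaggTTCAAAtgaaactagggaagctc
Mki67: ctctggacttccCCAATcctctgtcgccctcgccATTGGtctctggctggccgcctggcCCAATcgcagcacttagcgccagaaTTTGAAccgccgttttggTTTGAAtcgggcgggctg
The stretch shown for Cdk1, the mitotic kinase itself, lies at chr10:69352913-69353032 on the minus strand. That of Bub1, a checkpoint kinase, lies at chr2:127831860-127831979 on the minus strand. That of Kif11, the motor that pushes the spindle poles apart, lies at chr19:37376262-37376381 on the plus strand. The cytokinesis gene Prc1 is shown at chr7:80294356-80294475 on the plus strand, the anaphase activator Cdc20 at chr4:118437344-118437463 on the minus strand, and the ubiquitin-conjugating enzyme Ube2c at chr2:164769804-164769923 on the plus strand. The stretch of the topoisomerase gene Top2a is at chr11:99024190-99024309 on the minus strand. That of Mki67, which encodes the proliferation antigen Ki-67, is at chr7:135716460-135716579 on the minus strand. In Cdk1, Kif11, Prc1, Cdc20, Ube2c, Top2a and Mki67, 1 or more CCAAT boxes lie upstream of a CHR core. Bub1 holds 2 CCAAT boxes and no CHR core in the stretch shown. Cdk1 has a CHR core whose first base is 15 bases before the start, Cdc20 has one at 18 and Top2a one at 23.

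Windows of 300 bases, 250 before and 50 after the start, were found for 35 of the 42 members. The first 40 bases after the start lay in a GENCODE transcript of the gene for 26 of the 37 member windows. The windows of Birc5, Kif2c, Kif11 and Mki67 were among those where they did not, so these starts are less certain. There was no window for Ccna2, Cdc25c, Foxm1, Aurkb, Tpx2, Incenp or Kif20a. A CHR core on either strand was present in 25 of the 35, or 71.4%, against 20.2% of all 27025 genes with a window. CCAAT boxes were present in 26, or 74.3%, against 41.1% of all genes. Both motifs occurred in one window of 21 members, or 60.0%, against 7.97% of all genes. On a list of other mitosis genes, 56 had a window. Of these, 53.6% held a CHR core, 66.1% a CCAAT box and 39.3% both in one window. CCAAT boxes were also present in 61.1% of listed DNA replication and S phase genes with a window. For listed G1 cyclins, Cdk proteins and Cdk inhibitors the share was 63.2%. An E2F site (TTTCGCGC, TTTGGCGC, TTTCCCGC or TTTGCCGC) was found in 1 member window, or 2.86%, against 2.60% of all genes and 14 of the 36 genes with a window on a list of DNA replication and S phase genes. All 5 cytokinesis genes with a window held a CHR core. Each motif was counted on both strands and on its own, so overlapping matches both count, and a match is a description of letters and not a site shown to be bound. The windows of Pttg1, Melk, Nuf2, Nusap1 and Birc5 held neither a CHR core nor a CCAAT box.

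In chronic hypoxia all 42 genes had a higher mean TPM than at standard oxygen. The ratio of mean TPM had a median of 2.38 and ran from 1.12 for Pttg1, which encodes securin, to 4.37 for Ccnb2, which encodes cyclin B2. The ratio was above 2 for 33 members and above 3 for 7. A member had a median level of 6.23 TPM under standard oxygen, 7.68 TPM under acute and 16.3 TPM under chronic hypoxia. On the log2(TPM + 1) scale, on which the change of low genes is understated, the median log2 fold change of the members was 1.09 (range 0.18 to 1.94), beside 0.16 for all 11067 genes tested. After the libraries were rescaled by median-of-ratios factors, which brings the median of all genes to 0.00, the members' median was 0.94.

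How many of these differences passed the test changed with the treatment of the sample code. Without a block, 0 of 42 members were called higher in chronic hypoxia by limma at an adjusted p under 0.05, where 2.10% of all genes were, and the lowest adjusted p was 0.0538 for Ccnb2. Before adjustment 32 members had a p under 0.05, and 2533 of all 11067 genes tested had one. Once the code entered as a block, 37 of 42 were called higher, against 15.1% of all genes, and none was called lower. The 5 that were not called were the phosphatase gene Cdc25c, the kinase Ttk, the kinetochore genes Cenpf and Knl1, and Pttg1. All 3 chronic libraries were above all 3 standard libraries for 32 of 42 members, against 24.2% of all genes. Within pairs of the same code, chronic was above standard in 3 of 3 pairs for 41 of 42 members, against 46.9% of all genes. The exception was Pttg1.

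**Figure D1:**
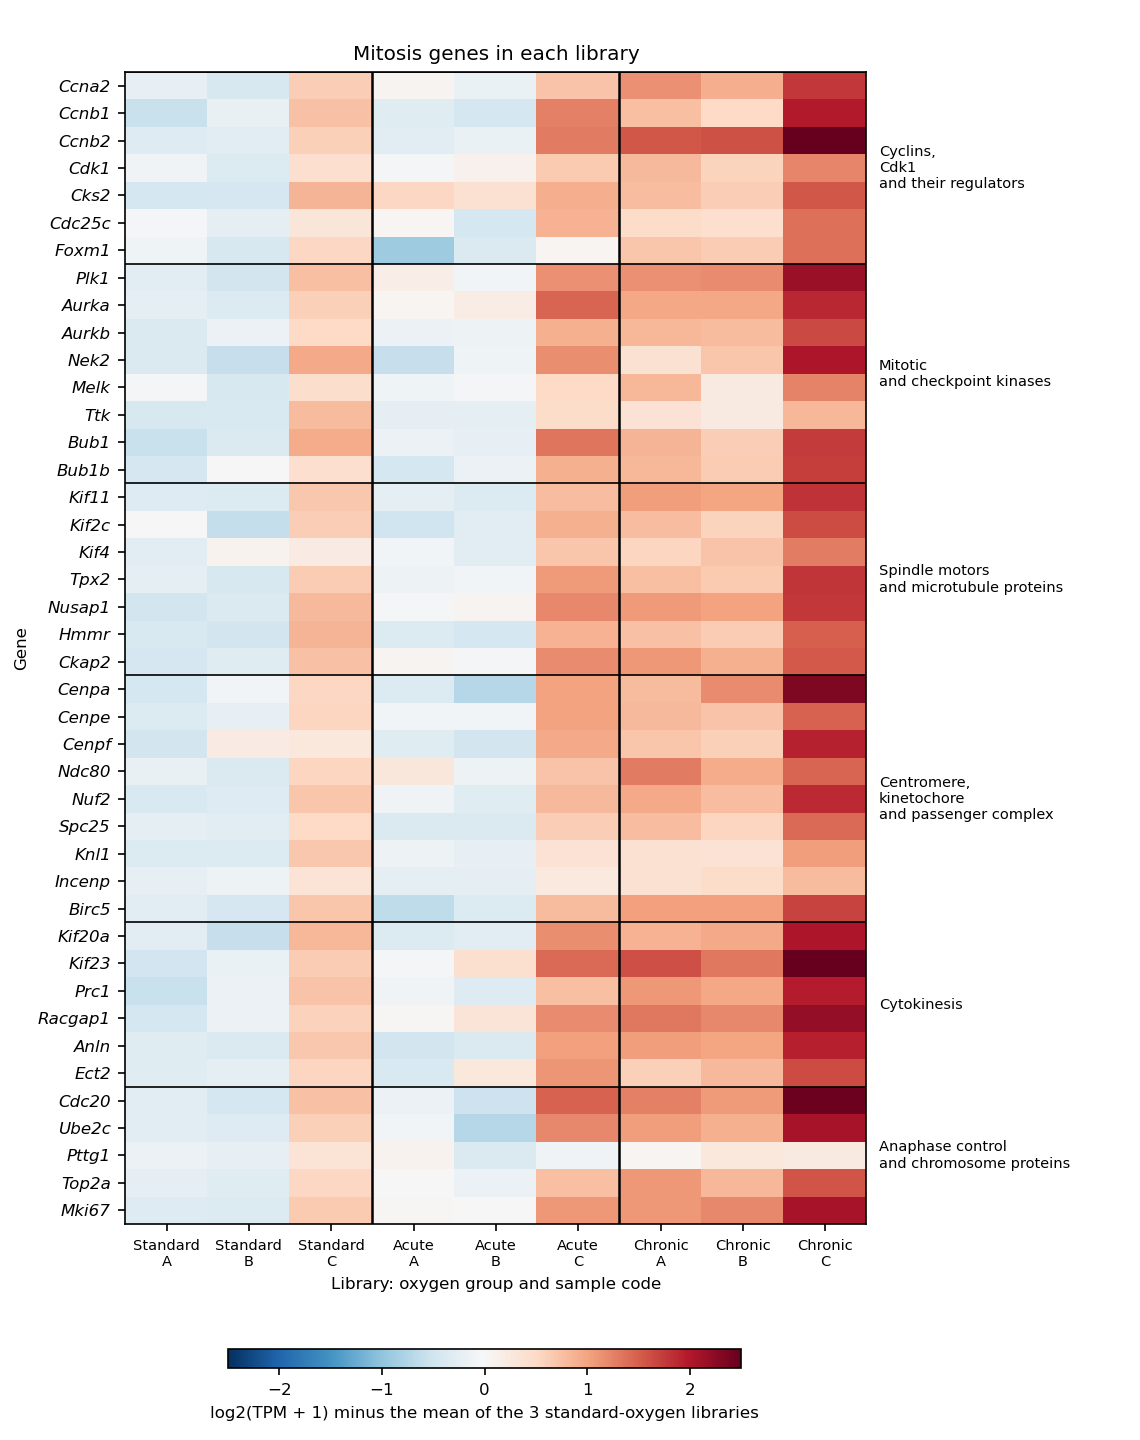
Heat map of the 42 genes (rows, grouped by role) in the 9 libraries (columns, by oxygen group and sample code). Colour gives log2(TPM + 1) minus the mean of the 3 standard-oxygen libraries. The chronic libraries are red in nearly every row, the library with code C has the highest value of its group in nearly every row, and the row of Pttg1 is pale throughout.

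After 3 hours at 1% oxygen no member was called. Acute against standard oxygen gave 0 of 42 members without a block (0.0182% of all genes were called higher) and 0 of 42 with the code block (0.655% of all genes). Before adjustment, 0 members had a p under 0.05 without a block and 11 had one with it (785 and 1555 of all 10987 genes). No member had all 3 acute libraries above all 3 standard libraries, against 7.63% of all genes. In pairs of the same code, acute was above standard in 3 of 3 pairs for 20 of 42 members, against 20.9% of all genes. The members' median log2 fold change was 0.17, beside 0.01 for all 10987 genes tested. It ran from -0.40 for Foxm1, a transcription factor of G2/M genes, to 0.60 for Cks2, a small Cdk1-binding subunit. The median turned to -0.19 without the acute library of code C. With all 3 libraries of that code left out, 2 remained per group. Cks2 alone was called then, at a log2 fold change of 0.87 and an adjusted p of 0.0208 by limma. In that fit 2.07% of all genes were called higher. Of 14 hypoxia markers, 2 were called higher in acute hypoxia without a block, the lipid droplet gene Hilpda (log2 fold change 2.35, adjusted p = 0.0119) and Mxi1, a repressor of the Myc network (1.15, adjusted p = 0.0244). With the code block 9 were called, Egln3, an oxygen-sensing prolyl hydroxylase, was highest at 3.24 and Car9, a carbonic anhydrase, was lowest at -0.29 and did not pass. Against standard oxygen, chronic hypoxia had 10 of the 14 called without a block and 12 with it, the 3 largest being Egln3 (5.16), Ankrd37 (2.79) and the mitophagy gene Bnip3 (2.73). Hilpda was lower in chronic than in acute hypoxia, by a log2 value of -1.73 (adjusted p = 0.0194 without a block), and the pyruvate dehydrogenase kinase gene Pdk1 was higher, by 0.68 (adjusted p = 0.0448 without a block).

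Chronic against acute hypoxia repeated the order of levels, and it shares its chronic libraries with the first comparison. All 42 members were higher in chronic hypoxia, by a median log2 fold change of 0.94 (0.80 after rescaling) beside 0.14 for all 11087 genes tested. The ratio of mean TPM had a median of 2.00 and ran from 1.24 for Pttg1 to 3.18 for Ccnb2. Without a block 0 of 42 members were called higher, against 0.550% of all genes. Before adjustment 19 members had a p under 0.05, and 2305 of all 11087 genes had one. The code block raised the number called higher to 36 of 42, against 12.1% of all genes. After rescaling as well it was 29, against 4.58% of all genes. With the code block alone, Cdc25c, Cks2, Knl1, Melk, Pttg1 and Ttk were not called. With rescaling added, Aurka, Bub1, Cdk1, Cenpe, Ckap2, Ect2 and Kif4 were not called either. All 3 chronic libraries were above all 3 acute libraries for 11 of 42 members, against 22.3% of all genes. In 3 of 3 pairs of the same code chronic was above acute for 41 of 42 members, against 43.5% of all genes. In both comparisons with the chronic group 35 members were called with the code block.

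**Figure D2:**
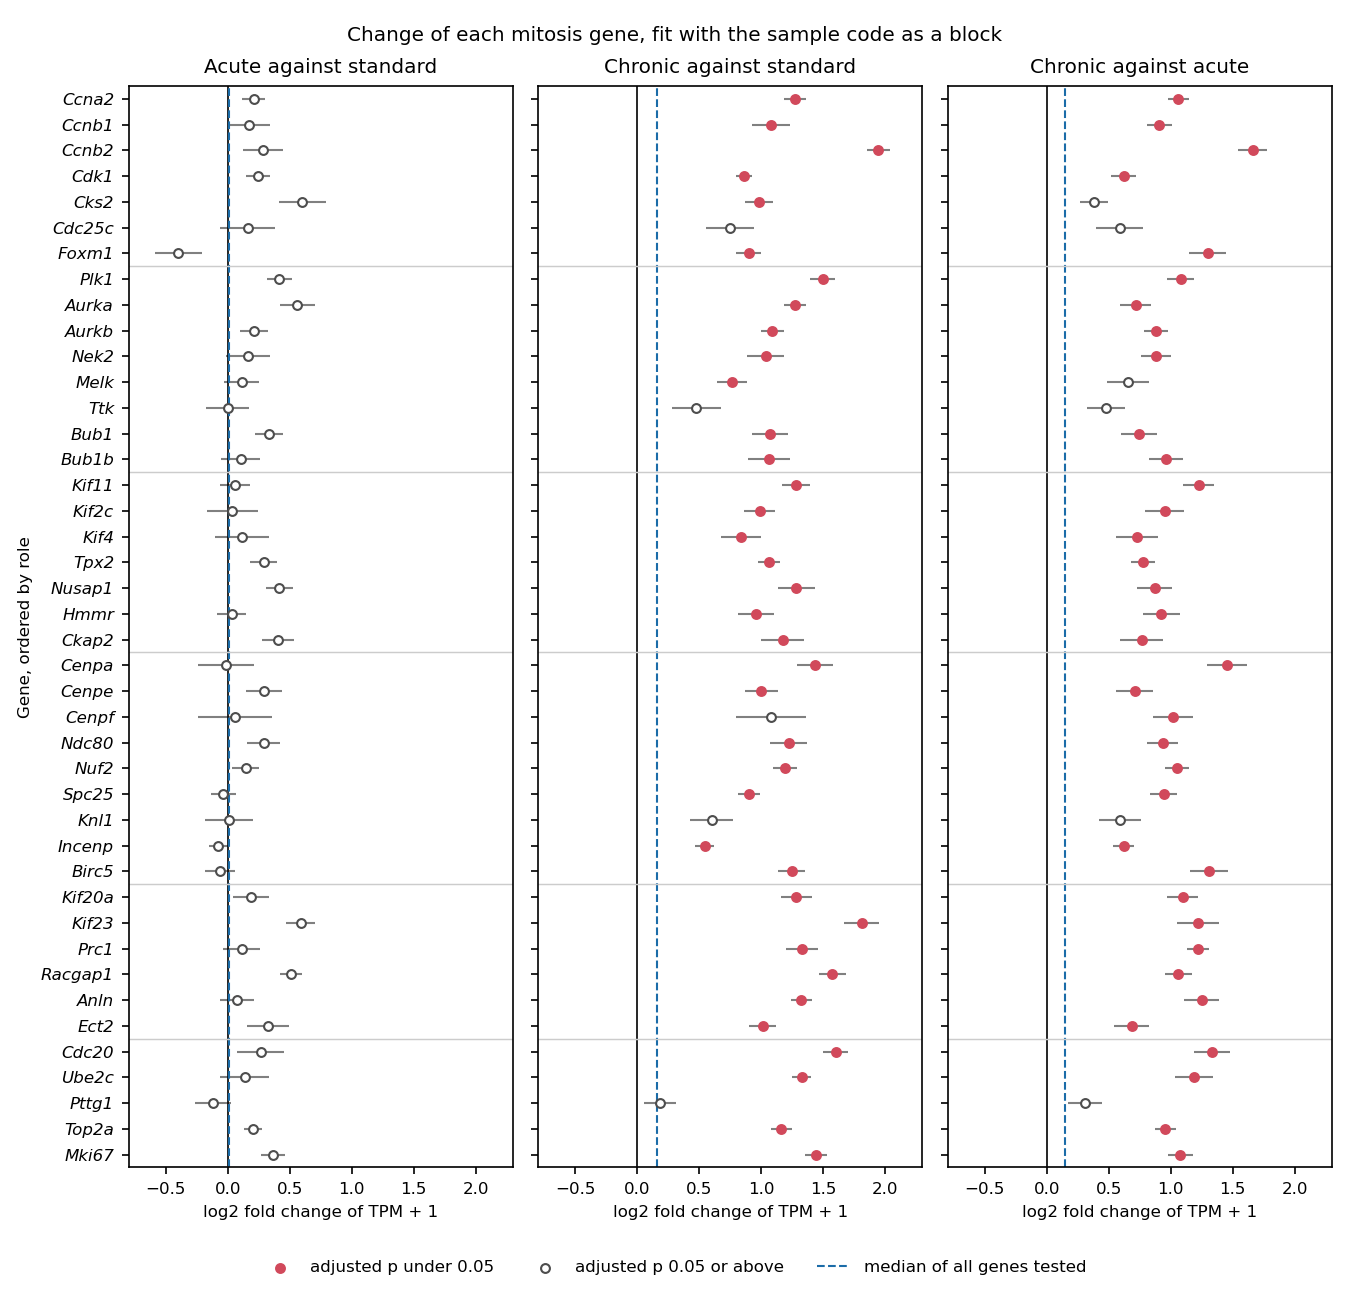
Log2 fold change of TPM + 1 (x axis) of the 42 genes (y axis, ordered by role, grey lines between roles) in the 3 comparisons. Points are estimates of the limma fit with the sample code as a block, bars are 1 standard error, and the dashed line is the median of all genes tested. Filled points passed the adjusted p threshold: 0 in acute against standard, 37 in chronic against standard and 36 in chronic against acute.

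The values below are given per group in the order of the codes A, B and C, and each adjusted p is from limma over all genes tested. Each SE is from the fit with the code block. Without a block the SE in chronic against standard oxygen was larger, at 0.248 for Cdk1 and 0.381 for Ccnb2. The log2 fold change was the same in both fits. With the code block, 15.1% of all genes were called higher in chronic hypoxia against standard oxygen.

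Cyclins, Cdk1 and their regulators (7 members) were higher in chronic hypoxia than at standard oxygen by a median of 0.98 on the log2 scale, and 6 of the 7 were called with the code block. On the TPM scale, which corrects for gene length, Cdk1 had the highest level of all members. It measured 44.2, 37.2 and 63.9 TPM under standard oxygen, 45.9, 51.1 and 74.8 TPM under acute and 83.3, 69.5 and 112 TPM under chronic hypoxia. The chronic and standard ranges did not touch, while the chronic and acute ranges overlapped. Its log2 fold change in chronic hypoxia was 0.86 ± 0.0654 (SE), adjusted p = 0.115 without a block and 0.00740 with the code in the model. Cyclin A2, which partners Cdk2 in S phase and Cdk1 in G2, is encoded by Ccna2, at 8.71, 7.48 and 16.3 TPM under standard oxygen, 10.8, 9.07 and 17.6 TPM under acute and 24, 20.02 and 37.2 TPM under chronic hypoxia. Each chronic library of Ccna2 was above each of the other 6. The change against standard oxygen was 1.27 ± 0.0877 (SE), adjusted p = 0.0973 without a block and 0.00689 with the code in the model. Cyclin B1, the main activator of Cdk1, came from Ccnb1 at 6.85, 9.14 and 18 TPM under standard oxygen, 8.29, 7.52 and 26.4 TPM under acute and 18.4, 15.1 and 44.6 TPM under chronic hypoxia. Here the C library at standard oxygen was above the B library in chronic hypoxia, so the groups overlapped. Within codes it was higher in 3 of 3 pairs, and its log2 fold change was 1.08 ± 0.153 (SE), adjusted p = 0.237 without a block and 0.0185 with the code in the model.

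Ccnb2, the second B-type cyclin, had the highest log2 fold change of the 42 against both other groups. Its gene lies at chr9:70407692-70421547 (GRCm38). Its levels were 4.99, 5.28 and 10.3 TPM under standard oxygen, 5.19, 5.74 and 17.4 TPM under acute and 21, 21.8 and 47.2 TPM under chronic hypoxia. For codes A and B the acute library was close to the standard one, and every chronic library was above all others. The log2 fold change was 1.94 ± 0.0926 (SE), adjusted p = 0.0538 without a block and 0.00465 with the code in the model against standard oxygen and 1.66 ± 0.119 (SE), adjusted p = 0.143 without a block and 0.00707 with the code in the model against acute hypoxia. Foxm1, the transcription factor of G2/M genes, was the member lowest in acute hypoxia relative to standard oxygen. It measured 5.61, 4.42 and 9.26 TPM under standard oxygen, 2.85, 4.59 and 6.46 TPM under acute and 10.5, 10.1 and 17.6 TPM under chronic hypoxia. The acute libraries of codes A and C were below their standard partners and that of B was level with its partner. The acute difference was -0.40 ± 0.186 (SE), adjusted p = 0.973 without a block and 0.419 with the code in the model, which did not pass. In chronic hypoxia Foxm1 was higher than in acute hypoxia by 1.30 ± 0.149 (SE), adjusted p = 0.0965 without a block and 0.0129 with the code in the model, and than at standard oxygen by 0.90 ± 0.1003 (SE), adjusted p = 0.150 without a block and 0.0128 with the code in the model. Cks2 measured 11.6, 11.8 and 29.7 TPM under standard oxygen, 23.4, 21.2 and 31.1 TPM under acute and 28, 25.2 and 49.4 TPM under chronic hypoxia. In codes A and B its acute level was already near the chronic one. For Cks2 the log2 fold change came to 0.98 ± 0.116 (SE), adjusted p = 0.220 without a block and 0.0137 with the code in the model in chronic and 0.60 ± 0.190 (SE), adjusted p = 0.894 without a block and 0.285 with the code in the model in acute hypoxia against standard oxygen, and 0.38 ± 0.112 (SE), adjusted p = 0.471 without a block and 0.0767 with the code in the model in chronic against acute. Cdc25c, the phosphatase that activates Cdk1, was the lowest member at standard oxygen, at 1.18 ± 0.429 TPM (SD, n = 3), and was 2.81 ± 1.56 TPM in chronic hypoxia.

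**Figure D3:**
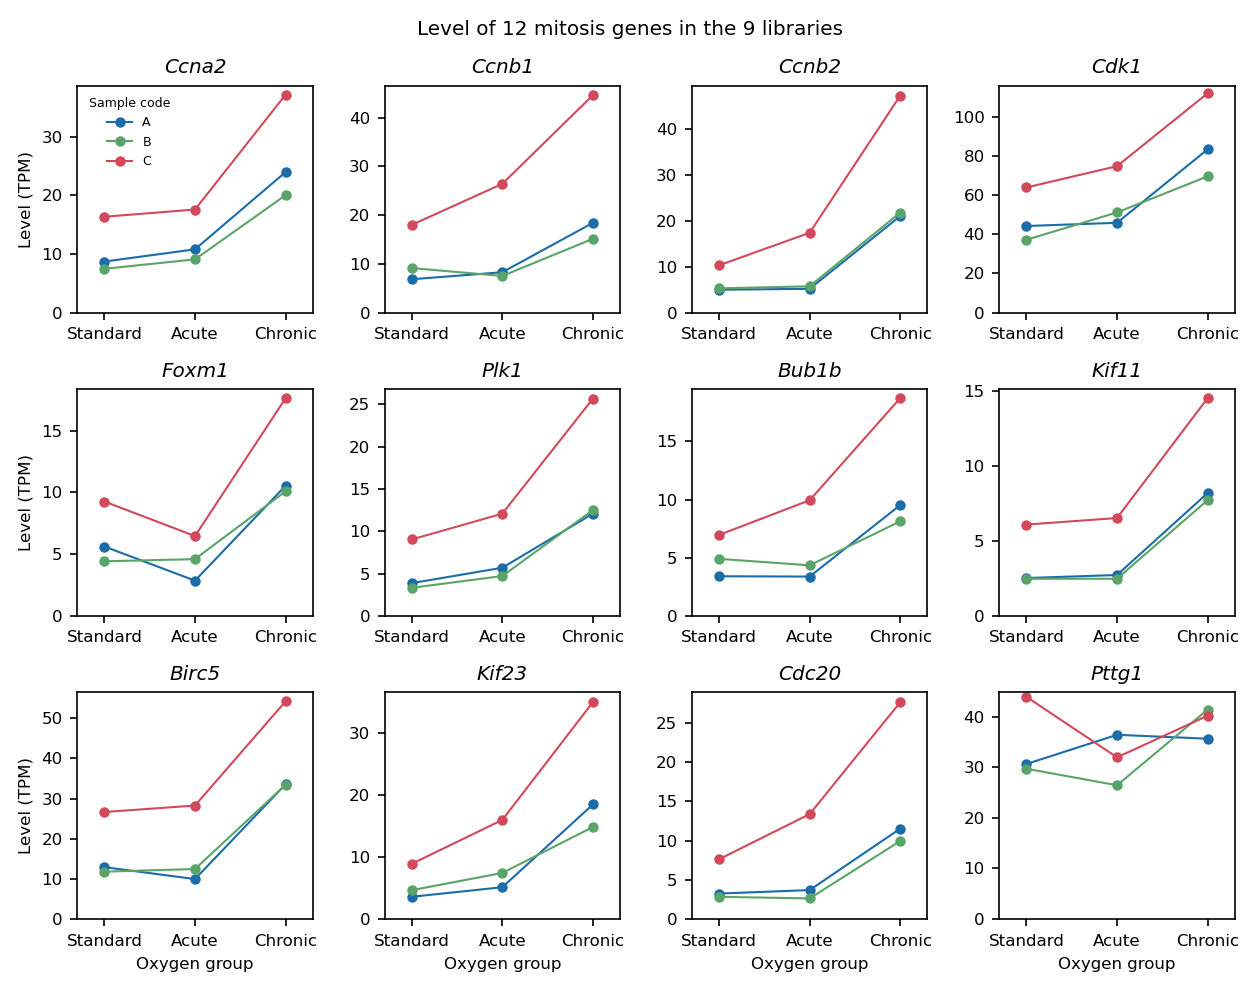
Level in TPM (y axis, from 0) of 12 of the 42 genes in the 3 oxygen groups (x axis). Each line joins the 3 libraries that carry the same sample code. The C line lies above the other 2 in every group except in acute and chronic hypoxia for Pttg1, and in the other 11 genes all 3 lines run upward from acute to chronic.

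Mitotic and checkpoint kinases (8 members) had a median change of 1.07 between standard oxygen and chronic hypoxia, and 7 of 8 were called with the code block. Plk1, which drives centrosome maturation and mitotic exit, measured 3.87, 3.32 and 9.03 TPM under standard oxygen, 5.69, 4.71 and 12.1 TPM under acute and 12.1, 12.5 and 25.7 TPM under chronic hypoxia. Its chronic libraries were all above the standard ones, but the acute C library lay at the level of the A library in chronic hypoxia. Its log2 fold change against standard oxygen was 1.49 ± 0.102 (SE), adjusted p = 0.107 without a block and 0.00689 with the code in the model. Aurkb, the kinase of the chromosomal passenger complex, measured 6.65, 7.93 and 13 TPM under standard oxygen, 7.94, 7.96 and 17.3 TPM under acute and 16.6, 16 and 29.8 TPM under chronic hypoxia. No chronic library overlapped a standard one. The difference was 1.09 ± 0.0956 (SE), adjusted p = 0.114 without a block and 0.00920 with the code in the model. Bub1b encodes BubR1, a part of the spindle assembly checkpoint, at 3.40, 4.90 and 6.96 TPM under standard oxygen, 3.38, 4.35 and 9.94 TPM under acute and 9.52, 8.13 and 18.7 TPM under chronic hypoxia. The C library stood highest in each group, and chronic and standard did not overlap. In the fit Bub1b differed by 1.06 ± 0.169 (SE), adjusted p = 0.142 without a block and 0.0228 with the code in the model. Ttk, the checkpoint kinase Mps1, was the second lowest of the 42 in chronic against standard oxygen. It measured 1.39, 1.42 and 4.43 TPM under standard oxygen, 1.68, 1.69 and 3.36 TPM under acute and 3.06, 2.70 and 4.64 TPM under chronic hypoxia. For code C the chronic and standard libraries were nearly level. The difference of Ttk was 0.48 ± 0.196 (SE), adjusted p = 0.483 without a block and 0.148 with the code in the model and did not pass. The other kinases had mean levels, at standard oxygen and in chronic hypoxia, of 6.11 and 16.2 TPM for Aurka, which acts at spindle poles, 3.70 and 8.79 TPM for the centrosome kinase Nek2, 3.69 and 7.07 TPM for Melk and 6.39 and 13.7 TPM for Bub1.

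Spindle motors and microtubule proteins (7 members) had a median log2 fold change of 1.06 and all 7 were called with the code block in chronic against standard oxygen. Kif11 measured 2.52, 2.47 and 6.08 TPM under standard oxygen, 2.72, 2.47 and 6.51 TPM under acute and 8.17, 7.70 and 14.5 TPM under chronic hypoxia. Acute and standard libraries of the same code differed little, and all chronic libraries were above all others. The fitted log2 difference of Kif11 was 1.28 ± 0.114 (SE), adjusted p = 0.110 without a block and 0.00920 with the code in the model in chronic and 0.06 ± 0.122 (SE), adjusted p = 1.00 without a block and 0.874 with the code in the model in acute hypoxia against standard oxygen. Tpx2, which activates Aurora A and nucleates spindle microtubules, measured 6.65, 5.74 and 12.9 TPM under standard oxygen, 7.14, 7.53 and 17.8 TPM under acute and 14, 13.1 and 29.8 TPM under chronic hypoxia. The A and B libraries in chronic hypoxia lay just above the C library at standard oxygen. The change was 1.06 ± 0.0880 (SE), adjusted p = 0.178 without a block and 0.00843 with the code in the model. The remaining 5 were Kif2c, a microtubule depolymerase, the chromokinesin Kif4, and the microtubule-associated Nusap1, Hmmr and Ckap2. Their log2 fold changes ran from 0.84 for Kif4 to 1.28 for Nusap1. After rescaling with the code block Kif4 was no longer called, at an adjusted p of 0.0570.

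Centromere, kinetochore and passenger complex genes (9 members) had a median log2 fold change of 1.08, with 7 of 9 called with the code block. Cenpa, the histone H3 variant that marks the centromere, measured 7.33, 9.72 and 15.1 TPM under standard oxygen, 7.90, 5.91 and 21.7 TPM under acute and 18.5, 24.7 and 55.7 TPM under chronic hypoxia. It was highest in chronic hypoxia for every code, and the C library in chronic hypoxia stood apart from the rest. For Cenpa the log2 fold change came to 1.44 ± 0.144 (SE), adjusted p = 0.122 without a block and 0.0114 with the code in the model against standard oxygen and 1.45 ± 0.162 (SE), adjusted p = 0.211 without a block and 0.0126 with the code in the model against acute hypoxia, the second highest of the members there. Ndc80, which binds microtubules at the outer kinetochore, measured 2.81, 2.41 and 5.36 TPM under standard oxygen, 4.29, 2.98 and 6.13 TPM under acute and 9.66, 7.25 and 10.9 TPM under chronic hypoxia. Each chronic library of Ndc80 was above the other 6. The difference from standard oxygen was 1.22 ± 0.151 (SE), adjusted p = 0.0742 without a block and 0.0149 with the code in the model. Birc5 encodes survivin of the passenger complex, at 12.9, 11.8 and 26.7 TPM under standard oxygen, 9.97, 12.5 and 28.3 TPM under acute and 33.6, 33.4 and 54.2 TPM under chronic hypoxia. Codes A and B were level with each other in chronic hypoxia and above every standard or acute library. In the fit Birc5 differed by 1.25 ± 0.108 (SE), adjusted p = 0.105 without a block and 0.00920 with the code in the model. Incenp, the scaffold of that complex, had the smallest called change, 0.54 ± 0.0757 (SE), adjusted p = 0.155 without a block and 0.0181 with the code in the model, from a high level of 21.2 and 31.1 TPM. Nuf2 and Spc25, partners of Ndc80 in one complex, were called at log2 fold changes of 1.19 (adjusted p = 0.145 without a block and 0.00843 with it) and 0.90 (0.148 and 0.0108). The motor Cenpe was called at 1.00 (adjusted p = 0.133 without a block and 0.0167 with it). Cenpf (1.08 ± 0.280 (SE), adjusted p = 0.191 without a block and 0.0594 with the code in the model) and Knl1 (0.60 ± 0.172 (SE), adjusted p = 0.368 without a block and 0.0725 with the code in the model) were low, with means of 1.24 ± 0.569 TPM and 1.57 ± 1.13 TPM (SD, n = 3) at standard oxygen, and were not called.

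Cytokinesis genes (6 members) had the highest median of the roles beside the anaphase and chromosome genes, at 1.33, and all 6 were called with the code block. In every one of the 6 the chronic libraries were above the standard ones. Kif23, a kinesin of the centralspindlin complex, measured 3.60, 4.66 and 8.91 TPM under standard oxygen, 5.14, 7.44 and 16 TPM under acute and 18.5, 14.8 and 35 TPM under chronic hypoxia. Code by code the order was standard, acute, chronic. The fitted log2 difference of Kif23 was 1.81 ± 0.140 (SE), adjusted p = 0.0679 without a block and 0.00774 with the code in the model in chronic hypoxia, the second highest of the 42, and 0.59 ± 0.117 (SE), adjusted p = 0.959 without a block and 0.145 with the code in the model in acute hypoxia, also the second highest. Racgap1, the other centralspindlin subunit, was called at 1.57 ± 0.109 (SE), adjusted p = 0.0718 without a block and 0.00689 with the code in the model in chronic hypoxia. Its acute difference was 0.51 ± 0.0899 (SE), adjusted p = 0.949 without a block and 0.111 with the code in the model. Kif20a, a motor of the central spindle, measured 3.13, 2.32 and 7.78 TPM under standard oxygen, 2.89, 3.14 and 10.05 TPM under acute and 8.01, 8.56 and 19.1 TPM under chronic hypoxia. The acute C library lay above the chronic libraries of the other codes. The change from standard oxygen to chronic hypoxia was 1.28 ± 0.127 (SE), adjusted p = 0.166 without a block and 0.0110 with the code in the model. Prc1, which bundles the microtubules of the central spindle, was at 6.07, 8.47 and 16.1 TPM under standard oxygen, 8.85, 7.34 and 16.5 TPM under acute and 21, 19.3 and 39.6 TPM under chronic hypoxia. No chronic library overlapped another group. For Prc1 the log2 fold change came to 1.33 ± 0.128 (SE), adjusted p = 0.120 without a block and 0.0104 with the code in the model. Anln, which encodes the contractile ring protein anillin, measured 5.04, 4.80 and 10.9 TPM under standard oxygen, 4.46, 4.84 and 14.3 TPM under acute and 14.4, 13.8 and 27.9 TPM under chronic hypoxia. Only the acute C library reached the chronic range of the other codes. The change was 1.32 ± 0.0860 (SE), adjusted p = 0.112 without a block and 0.00689 with the code in the model. Ect2, the exchange factor that activates RhoA at the division plane, was the lowest of the role at 1.01 ± 0.108 (SE), adjusted p = 0.151 without a block and 0.0122 with the code in the model.

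Anaphase control and chromosome genes (5 members) had a median log2 fold change of 1.33, with 4 of 5 called with the code block. Cdc20 measured 3.25, 2.84 and 7.63 TPM under standard oxygen, 3.70, 2.63 and 13.4 TPM under acute and 11.5, 9.95 and 27.6 TPM under chronic hypoxia. The 3 chronic libraries were above all standard ones, and the acute C library was above the chronic libraries of the other codes. In the fit Cdc20 differed by 1.60 ± 0.102 (SE), adjusted p = 0.114 without a block and 0.00689 with the code in the model. Ube2c, which works with the anaphase promoting complex, measured 20.9, 20.2 and 39.4 TPM under standard oxygen, 24.2, 15.2 and 60.2 TPM under acute and 53.6, 48 and 109.5 TPM under chronic hypoxia. Chronic hypoxia was highest within each code. The difference from standard oxygen was 1.32 ± 0.0796 (SE), adjusted p = 0.115 without a block and 0.00689 with the code in the model. Top2a, which untangles sister chromatids, measured 19, 18.1 and 32.7 TPM under standard oxygen, 22.5, 20.2 and 38.7 TPM under acute and 48.5, 40.5 and 69.2 TPM under chronic hypoxia. Each chronic library exceeded every library of the other groups. The fitted log2 difference of Top2a was 1.16 ± 0.0825 (SE), adjusted p = 0.0848 without a block and 0.00689 with the code in the model. Mki67 was at 4.81, 4.68 and 10.4 TPM under standard oxygen, 6.37, 6.16 and 14.3 TPM under acute and 14.3, 15.5 and 28.9 TPM under chronic hypoxia. Again no chronic library reached down to a standard library, and only the A library in chronic hypoxia was level with the acute C library. The change was 1.44 ± 0.0899 (SE), adjusted p = 0.0925 without a block and 0.00689 with the code in the model. Securin, from Pttg1 at chr11:43420250-43426251 (GRCm38), holds separase inactive until anaphase. Pttg1 measured 30.6, 29.7 and 43.9 TPM under standard oxygen, 36.4, 26.4 and 32 TPM under acute and 35.6, 41.4 and 40.2 TPM under chronic hypoxia. The groups overlapped, and code C was not the highest in acute or chronic hypoxia. Its log2 fold change in chronic hypoxia was 0.18 ± 0.128 (SE), adjusted p = 0.556 without a block and 0.344 with the code in the model against standard oxygen (0.01 after rescaling) and 0.31 ± 0.137 (SE), adjusted p = 0.274 without a block and 0.178 with the code in the model against acute hypoxia.

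The libraries with code C stood apart for this gene set. Among the 3 libraries of a group, C was the highest for 42 of 42 members at standard oxygen and for 41 in each hypoxia group, with Pttg1 the exception both times. The median ratio of the C level to the mean of the other 2 libraries was 2.12, 2.49 and 1.94 in the 3 groups, which is near the size of the chronic difference. Over all genes with a mean of at least 1 TPM, C was the highest in 57.8%, 55.4% and 54.7%. Summed over the 42 members the level was 295, 291 and 566 TPM under standard oxygen, 338, 323 and 690 TPM under acute and 699.8, 654 and 1244 TPM under chronic hypoxia. Each code had a higher sum in chronic hypoxia on its own. The ratio of the sums, chronic to standard, was 2.38 for A, 2.24 for B and 2.20 for C. The ratio of acute to standard was 1.15, 1.11 and 1.22. Leaving out C leaves 2 libraries per group and takes away the library that was highest for nearly all members, which narrows the spread within groups. Without the C libraries 36 of 42 members were called higher in chronic hypoxia against standard oxygen and 34 against acute hypoxia, in fits without a block. Of all genes tested in these fits, 17.0% and 12.8% were called higher.

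Markers of the labelled cell type were present in all libraries: each of 10 macrophage markers was above 1 TPM, and their summed level was 62700.8 to 70999.8 TPM under standard oxygen, 56888.6 to 75087.6 TPM under acute and 62062.4 to 68258.2 TPM under chronic hypoxia. Mertk moved with the code. It was 3.37, 2.21 and 2.59 TPM in the C libraries and 21.8 to 33.3 TPM in the other 6. The 11 neutrophil and granulocyte precursor markers summed to 899 to 1598 TPM under standard oxygen, 941 to 1911 TPM under acute and 259.98 to 589 TPM under chronic hypoxia. Nearly all of that sum was S100a8, with 273.9, 258 and 582 TPM in the chronic libraries, while S100a9 was listed at 0 in 8 of 9 libraries and Retnlg in all 9. The 9 erythroid and megakaryocyte markers summed to 25.9, 28.4 and 2.16 TPM in chronic hypoxia and 2.82 to 6.24 TPM in the other groups, nearly all of the former from Pf4. Each of the 8 stem and progenitor markers, Kit, Cd34 and Flt3 among them, was under 1 TPM in every library, as were the 6 dendritic and the 6 mast cell and basophil markers, 10 of 11 lymphocyte and 8 of 9 fibroblast markers. Of 6 osteoclast markers Ctsk moved with the code, at 33.9, 51.0 and 45.1 TPM in the C libraries and 7.57 to 11.9 TPM in the others, while Calcr was listed at 0 in all 9. The part of the code and of these markers in the changes of the mitosis genes was not tested.

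Other genes of the cell cycle, taken from lists drawn up by function, had lower medians. The lists and the members were chosen with earlier results of these data known, so the order of the medians is a description only. Of all genes, 15.1% were called higher and 3.30% lower in chronic hypoxia against standard oxygen with the code block. After rescaling as well, 5.61% were called higher. Of 71 other mitosis genes, 43 were called higher and 0 lower in chronic hypoxia with the code block, and the median change from standard oxygen was 0.73. Without a block 3 were called: Iqgap3, a scaffold protein (log2 fold change 1.96, adjusted p = 0.0077), Hmgb2, a chromatin protein (1.86, adjusted p = 0.0444), and Kif20b, a kinesin of cytokinesis (1.31, adjusted p = 0.0406). Espl1, which encodes separase, was at 1.90, and Psrc1 was the lowest at -0.01. Among 17 condensin and cohesin subunits 11 were called higher with the code block, at a median of 0.53, and Smc4 (1.04, adjusted p = 0.0302) and Smc1a (0.58, adjusted p = 0.0460) also passed without a block. The highest was the condensin gene Ncapd2, at 1.44, and the cohesin release factor Wapl was at -0.001. The 16 genes of the anaphase promoting complex core and its partner enzyme had a median of 0.31, with 5 called with the code block and 0 after rescaling.

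DNA replication and S phase genes (45 tested) were higher in chronic hypoxia than at standard oxygen by a median of 0.43, and 16 were called higher with the code block, 8 after rescaling and 0 without a block. Tk1, thymidine kinase, was highest at 1.11 (adjusted p = 0.108 without a block and 0.0169 with it), followed by the polymerase gene Pold1 at 0.96. The helicase subunit Mcm5 was at 0.42 (adjusted p = 0.326 without and 0.0256 with the block), the sliding clamp gene Pcna at -0.16 (adjusted p = 0.526 with the block) and the licensing factor Cdt1 lowest at -0.23 (adjusted p = 0.0953 with the block). E2F, pocket protein and MuvB factors (22 tested) had a median of 0.25, with 6 called and 2 after rescaling. E2f8, a repressor, was highest at 0.86, E2f3 lowest at -0.27, E2f1 at 0.24, the MuvB partner Mybl2 at 0.43 and Rbl2, the pocket protein p130, at 0.14. E2f3, E2f1, Mybl2 and Rbl2 did not pass with the code block.

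G1 cyclins, Cdk proteins and Cdk inhibitors (24 tested) went both ways, with 9 called higher and 2 lower with the code block in chronic hypoxia. Cdkn1b, the inhibitor p27, was higher in both hypoxia groups. It measured 8.17, 8.45 and 8.52 TPM under standard oxygen, 18.7, 20.1 and 24.3 TPM under acute and 22.6, 24.7 and 16.3 TPM under chronic hypoxia. All 6 hypoxic libraries were above the 3 standard ones. Its log2 fold change against standard oxygen was 1.22 in both, with an adjusted p of 0.0253 in acute and 0.0134 in chronic hypoxia with the code block, and 0.0568 and 0.0272 without. Ccng2 also passed without a block in chronic hypoxia (0.73, adjusted p = 0.0273). Mdm2 (-0.64, adjusted p = 0.0154) and Ccng1 (-0.41, adjusted p = 0.0284) were called lower with the code block and not without it (0.0970 and 0.137). Cdkn1a, the inhibitor p21, was at -0.17 against standard oxygen (adjusted p = 0.109) and at -0.39 against acute hypoxia (adjusted p = 0.0226), both with the code block, and the latter was not called without it (0.442). Cyclin D1, from Ccnd1, was at 0.07 (adjusted p = 0.440). In acute hypoxia Cdkn1b was the single gene of the 6 cell cycle lists outside the members that was called with the code block.

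**Figure D4:**
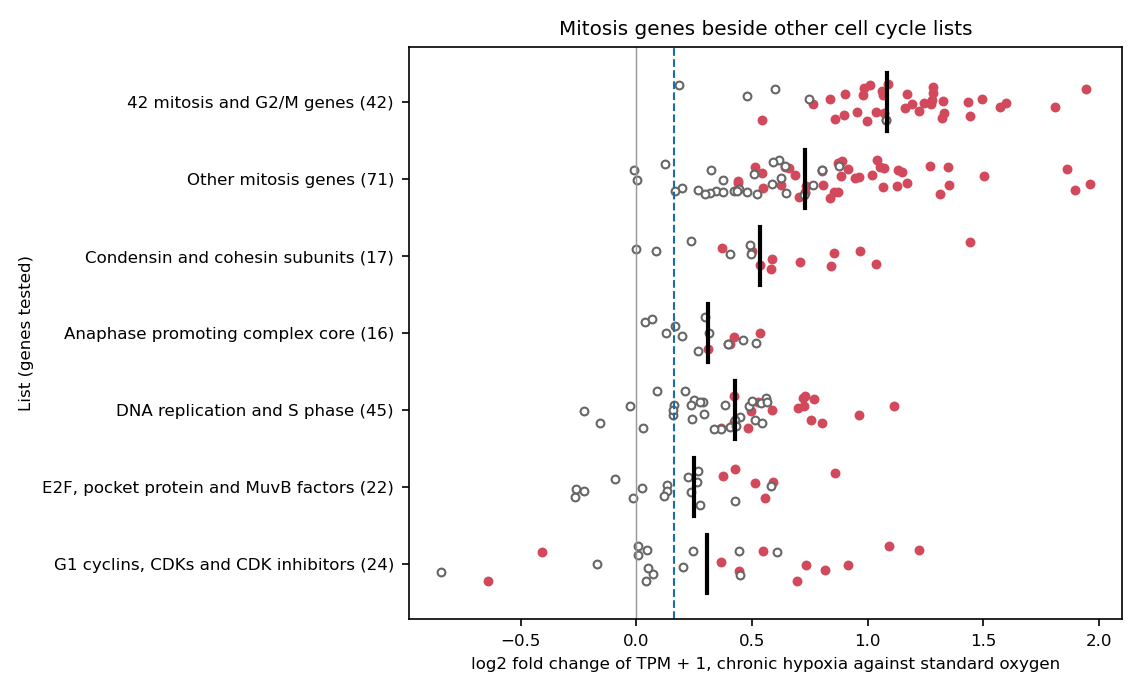
Log2 fold change of TPM + 1 in chronic hypoxia against standard oxygen (x axis) for every tested gene of 7 lists (y axis, with the number tested). Filled points passed the adjusted p threshold in the fit with the code block, black bars are list medians and the dashed line is the median of all genes tested, 0.16. The 42 mitosis and G2/M genes have the highest median, 1.09, and the E2F list, at 0.25, lies nearest to the dashed line. All lists were chosen with earlier results of these data known.

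Reads of some members could be shared with other genes, since the counting of such reads is not given. The 75-base stretches of the longest annotated transcript were searched, on either strand, in the transcripts of all other genes with a value. For 7 members at least 5% of them also occur in another gene, with the highest share, 35.2%, for Ccnb1. The others were Kif20a (29.3%), Cks2 (26.9%), Cdc25c (21.4%), Kif4 (15.4%), Ccna2 (15.2%) and Ube2c (11.998%), and for 22 members the share was 0. A gene that overlaps on the opposite strand also counts. Kif20a (chr18:34624613-34633277, plus strand) overlaps Cdc23 (chr18:34630951-34651735, minus strand) in this way. For these 7 members the level is uncertain to that extent. The same holds for Hmgb2 (20.8%), Pcna (23.7%), Ccnd1 (26.1%), Bnip3 (15.3%) and Rbl2 (5.65%) among the genes named outside the members.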

How the data were processed

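Messenger RNA libraries (Illumina TruSeq, 75-base paired-end reads) were made from total RNA, per the labels' protocols. The authors deposited 3 tables of TPM, each holding the 6 libraries of 2 groups, and the values of a library were identical in both of its tables. The submitters' processing notes name FastQC, STAR, featureCounts and GRCm38, and their roles, versions and settings are not given in the sources used here. TPM keeps no read depth, so the depth is unknown and no counting interval is given. Each library summed to 1000000 TPM, and a level is a share of the library. Of 34866 gene IDs, 34582 matched a symbol in GENCODE M21.

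Each comparison was fitted on its 6 libraries with limma 3.58.1 in R 4.3.3 on log2(TPM + 1), with a trended prior, for genes with a mean of at least 1 TPM. P-values were adjusted over all genes tested (Benjamini-Hochberg), and a gene was called at an adjusted p under 0.05. The procedure was tested on simulated data. No block was used in the main design. The sample code in the descriptions was then tried as a block. Deviations from the group means correlated between libraries of one code in each of 9 pairs (r = 0.375 to 0.631 over all genes tested). Over the members alone r for code B was -0.049 between acute and standard and 0.118 between chronic and standard. It was 0.259 to 0.812 in the other pairs. From the values over all genes the code was taken to pair the libraries. This pairing comes from the data and a shared code, and what the code marks is not stated. Members described with their test have both adjusted p-values, and their SE is from the fit with the code block.

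The members, their roles and the other lists were chosen with earlier results of these data known. Values in every library are given for 19 members chosen as a panel over the roles, and for the 2 highest and 2 lowest members of each comparison. Of the other lists, genes called without a block (or the 3 largest changes where more than 5 were), the highest and lowest gene, and a few fixed regulators were named. Promoter windows are RefSeq's, on GRCm38.p6. Alternatives were 2 other pseudocounts, 2 other filters, rescaling, 2 blocks, a fit of all 9 libraries, an untrended prior, leaving out each library, and leaving out the libraries of code C.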

Additional observations from a re-analysis of the deposited data

How the results depend on the processing

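The direction of the members' median was the same under every alternative in both comparisons with chronic hypoxia. Leaving out 1 library moved it between 0.79 and 1.47 against standard oxygen and between 0.63 and 1.33 against acute hypoxia. In acute against standard oxygen it moved between -0.19 and 0.47, and the negative value came without the acute library of code C.

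In the main design, without a block, the number of members called was 0 in all 3 comparisons. In both comparisons with chronic hypoxia it rose with the code block. It also rose there without a block when the libraries of code C were left out, which leaves 2 libraries per group. Chronic against standard oxygen gave 37 called members with the code block, against 15.1% of all genes called higher. It gave 36 with rescaling as well (5.61% of all genes), and 40 when all 9 libraries entered 1 fit with the code block (21.7%). With the libraries of code C left out and no block it gave 36 (17.0%). A fit of all 9 libraries without a block gave 4, where 764 of 11065 genes were called in either direction. At a mean of at least 5 TPM 1 was called, with 322 of 8904 genes. Without 1 library the count lay between 0 and 12. The 12 came without the standard library of code C, where 522 of 11023 genes were called. Chronic against acute hypoxia gave 36 with the code block (12.1% of all genes called higher) and 29 with rescaling as well (4.58%). It gave 38 with all 9 libraries and the code block (17.6%), and 34 without the libraries of code C (12.8%). Acute against standard oxygen gave 1 without the libraries of code C (2.07%) and 0 under every other alternative. With the replicate block, which uses the replicate number in the titles, 0 members were called in acute against standard, 0 in chronic against standard and 36 in chronic against acute, where the title numbers and the codes coincide. Against the standard group they differ for title numbers 2 and 3, and libraries that share only such a number correlated at -0.51 to -0.28.

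Of the 42 members, 31 changed sign under an alternative in acute against standard oxygen, and none did in the other comparisons. There were 74 such values, 62 of them from leaving out 1 library. The ranges were -0.41 to 0.41 for Anln, -0.14 to 0.46 for Aurkb, -0.49 to 0.29 for Birc5, -0.18 to 0.80 for Bub1, -0.29 to 0.37 for Bub1b, -0.047 to 0.52 for Ccna2, -0.37 to 0.54 for Ccnb1, -0.22 to 0.58 for Ccnb2, -0.33 to 0.66 for Cdc20, -0.20 to 0.46 for Cdc25c, -0.53 to 0.33 for Cenpa, -0.067 to 0.56 for Cenpe, -0.38 to 0.31 for Cenpf, -0.059 to 0.68 for Ect2, -0.39 to 0.46 for Hmmr. They were -0.24 to 0.090 for Incenp, -0.30 to 0.40 for Kif11, -0.30 to 0.60 for Kif20a, -0.39 to 0.34 for Kif2c, -0.18 to 0.31 for Kif4, -0.17 to 0.35 for Knl1, -0.089 to 0.33 for Melk, -0.34 to 0.63 for Nek2, -0.19 to 0.49 for Nuf2, -0.20 to 0.46 for Prc1, -0.23 to 0.053 for Pttg1, -0.36 to 0.21 for Spc25, -0.073 to 0.47 for Top2a, -0.10 to 0.61 for Tpx2, -0.23 to 0.39 for Ttk and -0.40 to 0.56 for Ube2c. Without the libraries of code C the values were -0.068 for Anln, -0.075 for Bub1b, -0.005 for Ccnb1, -0.084 for Kif2c, -0.078 for Kif4, 0.04 for Pttg1 and -0.094 for Ube2c. A pseudocount of 5 gave 0.014 for Cenpa, -0.01 for Knl1 and -0.017 for Ttk, and rescaling, with or without the code block, gave -0.011 for Ttk. The cause of these changes was not tested. The depth behind the TPM values is unknown, so what it limits cannot be given.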
